A study of Mus musculus with 6 samples.

Results

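The transcripts of 10 genes of transforming growth factor beta (TGF-beta) and bone morphogenetic protein (BMP) signalling were examined in sorted brain astrocytes of hyperglycemic and control mice. They were the ligands Tgfb1 and Tgfb2, the receptors Tgfbr1, Tgfbr2 and Bmpr1a, the inhibitory Smad genes Smad6 and Smad7, and the target genes Id1, Id2 and Id3. The genes were picked by symbol from the 45777 genes of the deposited table, with no threshold on their values, by a choice made with earlier results of these data known. All 10 had at least 1 read in every sample and were tested among the 22337 genes that did.

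The astrocytes came from male Aldh1l1-CreERT2; tdTomato fl/fl mice on a C57BL/6 background, in which tamoxifen (5 days at 75 mg/kg) turns on the red protein tdTomato in cells that use the Aldh1l1 promoter, an astrocyte promoter. Mice of both groups carried these alleles and received tamoxifen. At 8 weeks of age they received a single intraperitoneal dose of streptozotocin (STZ, 150 mg/kg), which kills insulin-producing beta cells, or citrate buffer (vehicle), and STZ mice were kept when blood glucose was over 250 mg/dl 5 days later. Brains were taken at 21 days, and sorted tdTomato-positive cells of 3 mice were pooled for each of 3 vehicle and 3 STZ samples. No sample label ties a vehicle pool to an STZ pool, and the p-values below measure the spread between these pools. The comparison asks how the transcripts of astrocytes differ in hyperglycemia.

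Total counts ranged from 52529048 to 58749115 reads, and the 10 genes had between 103 and 63821 reads in a sample, with at least 2153 for each of Id1, Id2 and Id3. The 8 astrocyte markers summed to between 5480 and 6349 FPKM (the authors' values of fragments scaled to transcript length and mapped reads), the highest levels among the marker lists of brain cells apart from choroid plexus. The 7 choroid plexus markers, led by Ttr, summed to between 4318 and 12935 FPKM with vehicle and between 6962 and 11820 with STZ. RNA of choroid plexus was thus present in every sorted sample, at levels that overlapped between the groups. In RNA of a sorted pool, fewer cells of a type and less RNA per cell cannot be told apart.

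Ligands of the TGF-beta family are secreted, those of the TGF-beta type in a latent complex that must be opened. They bind pairs of type I and type II receptors, which phosphorylate Smad proteins that enter the nucleus with Smad4. TGF-beta and activins signal mainly through Smad2 and Smad3, and BMPs mainly through Smad1, Smad5 and Smad9. Smad6 and Smad7 block the receptors and are themselves induced by the signal, as a brake. The Id genes are classic targets of BMP signalling. Their proteins have a helix-loop-helix but no DNA-binding region, and they hold E proteins and other basic helix-loop-helix factors off DNA. In the brain they are known for keeping progenitors undifferentiated and for favouring astrocytes over neurons and oligodendrocytes.

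The 250 bases before the transcription start of Id3 and Id2 are printed because these Id genes had the smallest p-value and the highest level of the 10. The sequences are those of RefSeq (GRCm38.p6), on the gene's own strand, and capitals mark matches to a BMP-type Smad motif, GGCGCC (its own reverse complement), or to the Smad motif CAGAC, which reads as its complement GTCTG on the opposite strand.
Id3, chr4:136143572-136143821, plus strand: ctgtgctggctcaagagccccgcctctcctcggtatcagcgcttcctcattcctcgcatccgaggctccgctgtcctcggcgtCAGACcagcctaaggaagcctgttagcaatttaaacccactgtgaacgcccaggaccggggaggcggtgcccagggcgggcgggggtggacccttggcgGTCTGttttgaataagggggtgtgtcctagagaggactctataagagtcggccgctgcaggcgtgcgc
Id2, chr12:25096093-25096342, minus strand: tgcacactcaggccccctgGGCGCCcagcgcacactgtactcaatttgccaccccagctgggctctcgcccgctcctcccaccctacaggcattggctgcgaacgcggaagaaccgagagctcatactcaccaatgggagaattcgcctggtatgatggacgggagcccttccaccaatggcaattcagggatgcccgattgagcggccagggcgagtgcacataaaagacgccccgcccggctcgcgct
With the first transcribed base as 0, CAGAC or its complement began at -167 and -68 in Id3, and GGCGCC at -231 in Id2. Among windows from 250 bases before to 50 after the start, 8 of the 10 genes had an entry, in 9 windows. Id1 and Smad7 had none. GGCGCC was found in 3 of the 9 windows (Id2, Tgfbr1 and Bmpr1a) and in 11.9% of the 32851 windows of all genes. This Smad motif was found, on either strand, in 4 of the 9 (Id3, Tgfb2, Tgfbr2 and the second Tgfbr1 window) and in 49.6% of all windows. These matches describe letters and not bound sites.

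The 3 Id genes were far more abundant than the receptors and ligands. Per transcript length, Id2 had a mean of 683 FPKM ± 96.0 (SD, n = 6 samples of both groups), at percentile 99.7 of the tested genes. Id3 had 359 FPKM ± 90.3 and Id1 had 63.8 FPKM ± 17.8 (SD, n = 6). These SDs include the difference between the groups. The type I BMP receptor gene Bmpr1a followed with 13.8 FPKM ± 0.549, at percentile 78.4, and then the ligand gene Tgfb2 with 8.42 FPKM ± 1.05 (SD, n = 6). The lower 5 genes were Tgfbr1 (4.50 FPKM ± 0.451), Tgfbr2 (4.27 ± 0.873), Smad6 (3.54 ± 0.863), Smad7 (1.52 ± 0.246) and Tgfb1 (1.28 ± 0.377; SD, n = 6 for each). Neighbours in this order had separate sample ranges except for Tgfbr1 and Tgfbr2, Tgfbr2 and Smad6, and Smad7 and Tgfb1. Of the ligands, RNA of the sorted samples therefore held more Tgfb2 than Tgfb1, and of the inhibitory Smads more Smad6 than Smad7. In each case the 6 samples did not overlap. The FPKM of Tgfb2 followed the order of the choroid plexus sums over all 6 samples. The part of choroid plexus RNA in its level was not tested.

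**Figure D1:**
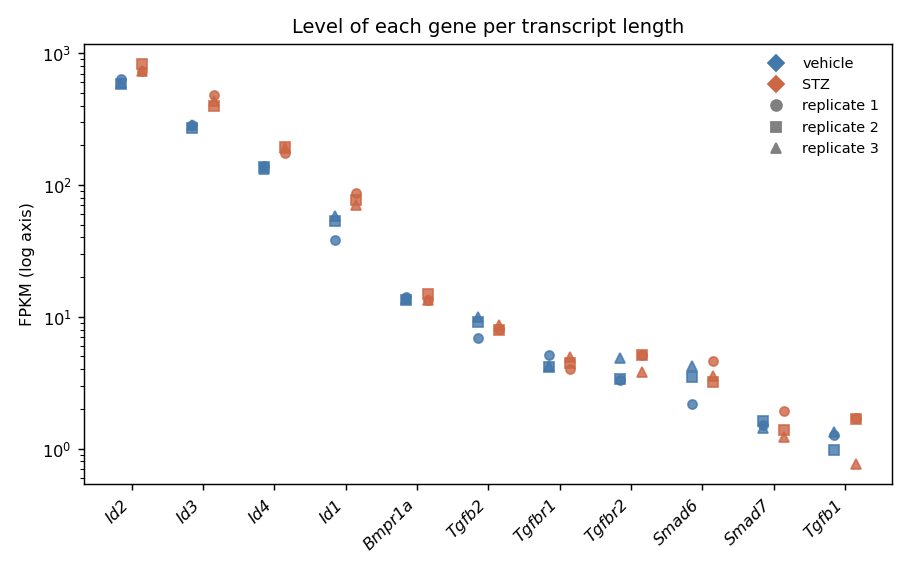
Level of each gene per transcript length (FPKM, log axis) in the 3 vehicle (blue) and 3 STZ (orange) samples, with the marker shape giving the replicate and Id4 drawn for reference. Id2 lies highest at a mean of 683 FPKM and Tgfb1 lowest at 1.28 FPKM, and the STZ points of the 4 Id genes lie above their vehicle points.

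Between the groups, the 3 Id genes stood higher with STZ in every sample, while each of the other 7 genes overlapped. Differences between groups are given as log2 fold changes of STZ over vehicle from edgeR's quasi-likelihood test on the counts, with their standard errors (SE), and sample values as normalized CPM (read counts scaled to library size after TMM normalization). A gene was called at a Benjamini-Hochberg adjusted p under 0.05 over all tested genes with a fold change over 1.5. By this rule edgeR called 0 of the 10 genes, where it called 0.0224% of all tested genes (5 genes). DESeq2, the tool named in the study's methods, called 1 of the 10, Id1, where it called 1.05% of all tested genes (234 genes). At an unadjusted edgeR p under 0.05 there were 3 of the 10, all higher with STZ, against 5.63% of tested genes in that direction and 11.3% in both. The same 3 genes, Id1, Id2 and Id3, had groups that did not overlap, against 8.64% of tested genes higher with STZ without overlap and 18.5% in both directions. Of the 10 log2 fold changes 6 were positive, with a median of 0.14, beside a median of 0.01 over all tested genes.

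**Figure D2:**
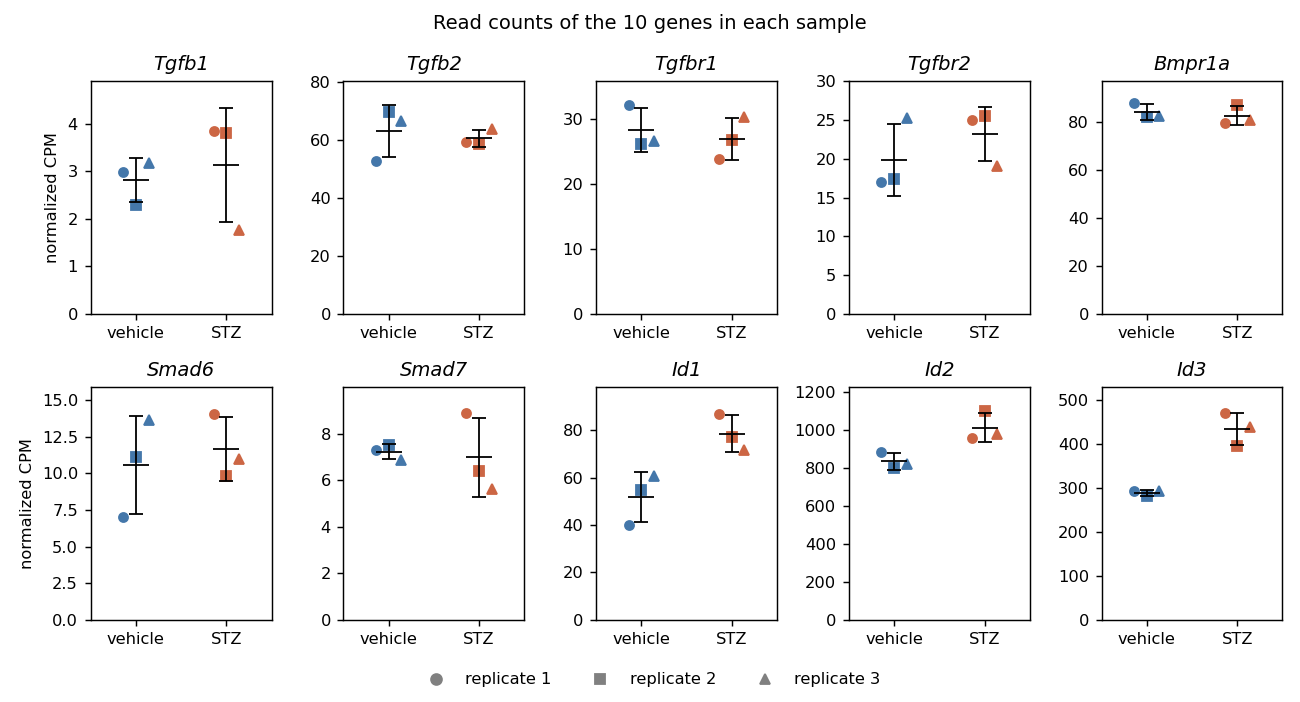
Normalized CPM of the 10 genes in each vehicle (blue) and STZ (orange) sample, with the group mean and SD as bars (n = 3) and every axis starting at 0. In the Id1, Id2 and Id3 panels all STZ points lie above all vehicle points, and in the other 7 panels the groups overlap.

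Id3 (NCBI gene 15903, mm10 chromosome 4, 136143822 to 136145392), an inhibitor of DNA binding found in astrocytes and blood vessels, had the smallest p-value of the 10. Its normalized CPM was 294, 282 and 293 in vehicle replicates 1 to 3 and 470, 397 and 439 in STZ replicates 1 to 3. The vehicle samples lay close together, and every STZ sample lay well above all of them. Means were 290 ± 6.79 and 436 ± 36.7 (SD, n = 3 per group), giving a log2 fold change of 0.59 (SE 0.0831, 95% interval 0.39 to 0.78). In edgeR the unadjusted p was 0.000138, rank 21 of the tested genes, and the adjusted p was 0.138. DESeq2 gave an adjusted p of 1.07e-05 with a log2 fold change of 0.58, just under the fold threshold, so that it was not called there either.

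Id1 (NCBI gene 15901, chromosome 2, 152736251 to 152737410), a paralog of Id3 that is also abundant in endothelial cells, showed a difference of similar size with a wider spread. Its normalized CPM was 40.2, 55.0 and 60.5 with vehicle and 86.9, 76.9 and 71.6 with STZ. The groups did not overlap, and vehicle replicate 1 lay farthest from STZ. Means were 51.9 ± 10.5 and 78.5 ± 7.77 (SD, n = 3 per group), giving a log2 fold change of 0.60 (SE 0.153, 95% interval 0.24 to 0.95). The adjusted p was 0.288 in edgeR and 0.0211 in DESeq2. Without vehicle replicate 1 the log2 fold change was 0.44, the lowest among the 6 samples left out in turn.

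Id2 (NCBI gene 15902, chromosome 12, 25093799 to 25096092), the most abundant of the 10, showed a smaller difference. Its normalized CPM was 884, 798 and 818 with vehicle and 957, 1096 and 977 with STZ. All STZ samples lay above all vehicle samples, with STZ replicate 2 the highest. Means were 834 ± 45.3 and 1010 ± 75.3 (SD, n = 3 per group), giving a log2 fold change of 0.28 (SE 0.0910, 95% interval 0.07 to 0.49). The unadjusted p was 0.0170 and the adjusted p 0.349 in edgeR, and the adjusted p in DESeq2 was 0.193. The unadjusted p was above 0.05 when vehicle replicate 2 (0.0831), vehicle replicate 3 (0.0842) or STZ replicate 2 (0.0745) was left out.

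Id4 (NCBI gene 15904, chromosome 13, 48261116 to 48266028), the remaining gene of the family, lies outside the 10 and overlaps the gene A330033J07Rik, whose reads the counting may share. It had 604, 588 and 567 normalized CPM with vehicle and 722, 802 and 800 with STZ. Again no samples overlapped. The log2 fold change was 0.40 (SE 0.0803, 95% interval 0.21 to 0.59), with an adjusted p of 0.209 in edgeR and 0.00717 in DESeq2.

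**Figure D3:**
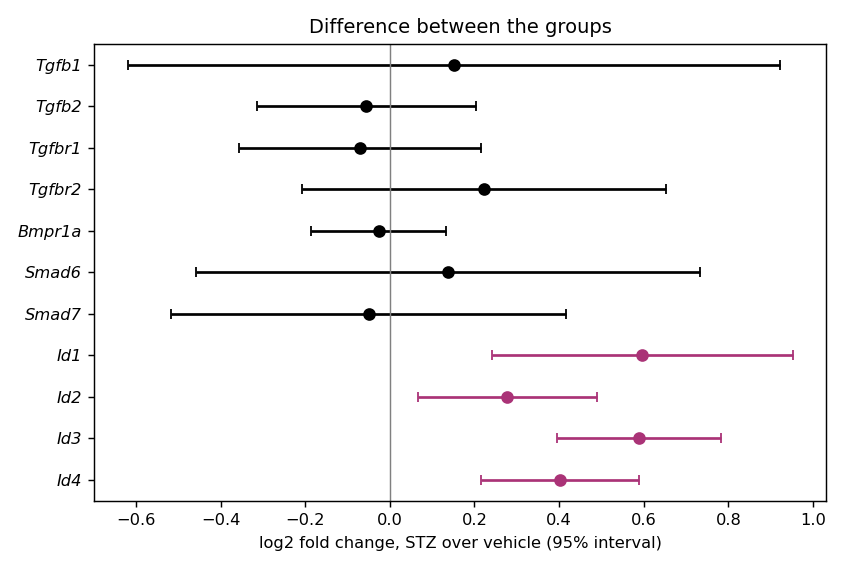
Log2 fold change of STZ over vehicle from edgeR for the 10 genes and Id4, with 95% intervals. The intervals of Id1, Id2, Id3 and Id4 (purple) lie above 0, from 0.07 at the low end of Id2 to 0.95 at the high end of Id1, and those of the other 7 genes include 0.

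Summed over Id1, Id2 and Id3, the level was 959, 905 and 935 FPKM with vehicle and 1294, 1305 and 1236 FPKM with STZ. The sums of each group lay close together (933 ± 27.2 and 1278 ± 37.3, SD, n = 3) with a wide gap between the groups. The E proteins Tcf3, Tcf4 and Tcf12, the main partners that Id proteins sequester, summed to 76.4, 77.2 and 75.7 FPKM with vehicle and 80.7, 79.1 and 83.6 FPKM with STZ. These sums did not overlap between the groups either, with a smaller gap. Tcf4, the E protein gene with the most reads, had 544 ± 14.3 and 560 ± 29.9 normalized CPM, giving a log2 fold change of 0.04. Ratios of read counts within a sample need no scaling between libraries, and 8 such ratios, chosen after the values were seen, were compared with a two-sided exact permutation test whose smallest p is 0.1. The ratio of Id3 to Tcf4 was 0.537, 0.508 and 0.555 with vehicle and 0.887, 0.710 and 0.745 with STZ, a difference of 0.54 on the log2 scale (exact permutation p = 0.1, adjusted p = 0.2). The ratios of Id1 and Id2 to Tcf4 also separated the groups, by 0.57 and 0.23 on the log2 scale (exact permutation p = 0.1, adjusted p = 0.2 for each). Within the family, the ratio of Id3 to Id2 was higher with STZ by 0.31 on the log2 scale (exact permutation p = 0.1, adjusted p = 0.2), without overlap. The ratio of Id1 to Id3 differed by 0.03 (exact permutation p = 1.0). For Id3 to Id2 the STZ value closest to vehicle was 0.362 in STZ replicate 2, against 0.358 in vehicle replicate 3.

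Upstream of the Id genes, no difference was detected in the 2 ligand genes. Tgfb1 (NCBI gene 21803, chromosome 7, 25687002 to 25705077), which in the brain is made largely by microglia, had 2.98, 2.29 and 3.18 normalized CPM with vehicle and 3.84, 3.80 and 1.75 with STZ. STZ replicate 3 was the lowest of the 6 samples and the other two STZ samples were the highest. The log2 fold change was 0.15 (95% interval -0.62 to 0.92, adjusted p = 0.891 in edgeR). Tgfb2 (NCBI gene 21808, chromosome 1, 186622787 to 186709697), the TGF-beta ligand with the highest level in these samples, had 52.6, 69.6 and 66.6 normalized CPM with vehicle and 59.4, 58.4 and 63.9 with STZ. All STZ samples lay inside the vehicle range. The log2 fold change was -0.06 (95% interval -0.31 to 0.20, adjusted p = 0.879 in edgeR). Tgfb3, the third TGF-beta ligand, had means of 7.76 and 8.38 normalized CPM (log2 fold change 0.11, adjusted p = 0.897).

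The receptor genes showed no difference that passed the test either. Bmpr1a (NCBI gene 12166, chromosome 14, 34411061 to 34503336), a type I receptor for BMPs, had 87.6, 82.0 and 82.3 normalized CPM with vehicle and 79.6, 87.1 and 80.7 with STZ. Its interval was the narrowest of the 10, with a log2 fold change of -0.03 (95% interval -0.19 to 0.13, adjusted p = 0.910 in edgeR). Tgfbr1 (NCBI gene 21812, chromosome 4, 47353222 to 47414926), the type I receptor for TGF-beta, had 32.1, 26.0 and 26.6 normalized CPM with vehicle and 23.8, 26.7 and 30.2 with STZ, giving a log2 fold change of -0.07 (95% interval -0.36 to 0.22, adjusted p = 0.859). For both genes the highest and the lowest of the 6 samples came from different groups and the rest intermixed. Tgfbr2 (NCBI gene 21813, chromosome 9, 116087695 to 116175363), the type II receptor that binds TGF-beta first, had 17.0, 17.4 and 25.2 normalized CPM with vehicle and 25.0, 25.5 and 19.1 with STZ. In each group 1 sample lay at the level of the other group, vehicle replicate 3 and STZ replicate 3. The log2 fold change was 0.22 (95% interval -0.21 to 0.65, adjusted p = 0.670 in edgeR). It was 0.42 with an unadjusted edgeR p of 0.0327 without vehicle replicate 3, and 0.12 without vehicle replicate 1 or vehicle replicate 2. Tgfb2, Tgfbr1, Tgfbr2 and Smad7 each overlap at least 1 other annotated gene, with which reads may be shared, since the strand used in counting is not stated.

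For the inhibitory Smads, which are themselves targets of the pathway, no difference passed the test. Smad6 (NCBI gene 17130, chromosome 9, 63953076 to 64022085), which mainly restrains BMP signals, had 6.99, 11.1 and 13.7 normalized CPM with vehicle and 14.1, 9.84 and 11 with STZ, giving a log2 fold change of 0.14 (95% interval -0.46 to 0.73, adjusted p = 0.869 in edgeR). Smad7 (NCBI gene 17131, chromosome 18, 75367365 to 75395935), which restrains both branches, had 7.29, 7.50 and 6.88 normalized CPM with vehicle and 8.90, 6.41 and 5.62 with STZ, giving a log2 fold change of -0.05 (95% interval -0.52 to 0.42, adjusted p = 0.95). In both genes the groups overlapped. With 3 samples per group, the intervals of Tgfb1, Tgfbr2, Smad6 and Smad7 reach above the log2 fold change of Id2 (0.28), so that they include an increase of that size. The upper ends for Bmpr1a, Tgfb2 and Tgfbr1 (0.13, 0.20 and 0.22) lie below it.

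The wider pathway was read from lists of 107 further genes, of which 97 were tested. In these edgeR called 0 genes and DESeq2 called 4 (Acvrl1, Tagln, Acta2 and Cdkn1a). At an unadjusted edgeR p under 0.05 there were 24, of which 13 were higher and 11 lower with STZ (5.63% and 5.65% of all tested genes), and the median log2 fold change was 0.03. Among BMP, activin and GDF ligands, 1 of 13 tested genes was higher and 4 were lower at that p, with a median of -0.22. Inhbb, which encodes an activin subunit, had 35.1, 35.9 and 35.5 normalized CPM with vehicle and 28.1, 25.8 and 25.1 with STZ, giving a log2 fold change of -0.43 (SE 0.0772, adjusted p = 0.186 in edgeR and 0.00725 in DESeq2). Its vehicle samples were almost equal and all STZ samples lay lower. Inhba, the gene of another activin subunit, had means of 10.2 and 7.40 normalized CPM (log2 fold change -0.46). Bmp2, with 45 to 113 reads in a sample, had 1.69 and 0.928 (log2 fold change -0.86). The remaining lower gene was Bmp7, named after its values were seen. It had 95.9 and 82.2 normalized CPM without overlap (log2 fold change -0.22, adjusted p = 0.424 in edgeR). Gdf10, a TGF-beta family ligand of astrocytes and the most abundant gene of the list, was the gene on the higher side, with 91.5 ± 12.1 and 122 ± 16.3 normalized CPM (SD, n = 3 per group, log2 fold change 0.42, adjusted p = 0.328).

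Genes of the latent complex and its activation gave 4 of 13 lower and 0 higher at an unadjusted edgeR p under 0.05, with a median of -0.14. Ltbp1, which ties latent TGF-beta to the matrix, had 47.1, 40.3 and 37.5 normalized CPM with vehicle and 25.0, 30.5 and 32.0 with STZ, giving a log2 fold change of -0.51 (adjusted p = 0.279 in edgeR and 0.0351 in DESeq2). Ltbp3, a relative with the same role, had means of 66.7 and 51.8 normalized CPM (log2 fold change -0.36). The integrin subunit gene Itgb5, the most abundant of the list, had 282 and 242 normalized CPM (log2 fold change -0.22), and the thrombospondin gene Thbs2 had 16.9 and 12.4 (log2 fold change -0.45). The groups did not overlap in any of these 4 genes, as in 9.85% of all tested genes on the lower side. Of the extracellular inhibitors, 2 of 11 were lower at an unadjusted p under 0.05 and 0 higher. They were the BMP-binding Bmper, with 16.3 ± 0.595 and 11.1 ± 1.75 normalized CPM (SD, n = 3 per group, log2 fold change -0.55, adjusted p = 0.289 in edgeR and 0.0364 in DESeq2), and Chrdl1, a BMP antagonist secreted by astrocytes. Chrdl1 had 154, 144 and 149 normalized CPM with vehicle and 82.4, 120 and 113 with STZ, giving a log2 fold change of -0.51 (adjusted p = 0.301 in edgeR and 0.0432 in DESeq2). Sostdc1, the most abundant extracellular inhibitor and a gene of choroid plexus, varied from 83.9 to 238 normalized CPM among the vehicle samples and overlapped between the groups.

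Among the 11 other receptor genes tested, Acvrl1 was the only one with an unadjusted edgeR p under 0.05, and it is named after its values were seen. Acvrl1, a type I receptor of endothelial cells, had 4.79, 6.01 and 11.5 normalized CPM with vehicle and 21.7, 16.5 and 11.1 with STZ, giving a log2 fold change of 1.15 (adjusted p = 0.345 in edgeR and 0.0205 in DESeq2). Its co-receptor Eng, named for the same reason, had means of 3.71 and 8.16 normalized CPM. Both genes overlapped between the groups, and in both STZ replicate 3 lay below vehicle replicate 3. Bmpr1b, the most abundant receptor gene after its length is accounted for, had 108 ± 16.7 and 92.7 ± 15.7 normalized CPM (SD, n = 3 per group).

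Of the 6 receptor-activated and common Smads, Smad1 had an unadjusted edgeR p under 0.05. Smad1, a transducer of BMP signals, had 47.1, 45.2 and 45.7 normalized CPM with vehicle and 52.7, 52.2 and 56.4 with STZ, giving a log2 fold change of 0.23 (SE 0.0670, adjusted p = 0.322 in edgeR). Smad3 (16.9 and 20.1 normalized CPM) and Smad9 (3.29 and 4.19) also had groups that did not overlap, with adjusted p-values of 0.475 and 0.539 in edgeR. Smad2, Smad4 and Smad5 had log2 fold changes between -0.04 and 0.03. Of the 10 other intracellular inhibitors, Tgif1, a nuclear repressor of Smad2, was higher at an unadjusted p under 0.05 (11.3 and 15.2 normalized CPM, adjusted p = 0.371). Skil, another repressor of Smads, had 9.09 and 7.42 normalized CPM without overlap (adjusted p = 0.470), and Fkbp1a, which binds type I receptors, had 186 and 181 normalized CPM.

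The targets other than the Id genes differed among themselves. Of 17 TGF-beta targets tested, 7 were higher and 0 lower at an unadjusted edgeR p under 0.05, with 14 positive and a median log2 fold change of 0.64. Tagln, a smooth muscle actin-binding protein gene, had 0.597, 0.848 and 1.19 normalized CPM with vehicle and 6.13, 5.0 and 5.41 with STZ, giving a log2 fold change of 2.65 (adjusted p = 0.0723 in edgeR and 7.27e-17 in DESeq2). Acta2, smooth muscle actin, had 15.9, 18.4 and 22.7 normalized CPM with vehicle and 53.5, 40.8 and 45.6 with STZ, giving a log2 fold change of 1.30 (adjusted p = 0.0980 in edgeR and 1.6e-11 in DESeq2). Both genes are also in the list of pericyte and smooth muscle markers, as are the targets Col1a1, Col1a2 and Col3a1 in the fibroblast list and Junb in that of immediate-early genes. The cell cycle inhibitor gene Cdkn1a had means of 27.9 and 52.2 normalized CPM (log2 fold change 0.90, adjusted p = 0.272 in edgeR and 0.00271 in DESeq2), and the matrix protein gene Ccn2 had 2.57 and 9.80 (log2 fold change 1.93, adjusted p = 0.306 in edgeR). Over all 6 samples both Cdkn1a and Ccn2 followed the order of the endothelial marker sums given below. The part of vessel-cell RNA in their differences was not tested. Bhlhe40, the most abundant TGF-beta target by FPKM, overlapped between the groups (219 and 244 normalized CPM). Of 6 BMP targets outside the Id family, Dlx2, a homeobox gene, was higher at an unadjusted p under 0.05 (41.4 and 56.2 normalized CPM, log2 fold change 0.44, adjusted p = 0.434). Its log2 fold change was 0.26 without vehicle replicate 1 and 0.30 without STZ replicate 1, and edgeR's quasi-likelihood test then gave 0.0931 and 0.162 before adjustment. The BMP target Msx1 had 160 and 118 normalized CPM with overlap, and the astrocyte filament gene Gfap had a log2 fold change of 0.00. Among the vehicle samples Msx1 varied from 78.1 to 224 normalized CPM. Its samples stood in the order of the choroid plexus sums, except that vehicle replicates 2 and 3 were exchanged. The part of choroid plexus RNA in Msx1 was not tested. Of 8 partners of Id proteins, Olig2, a helix-loop-helix factor of the oligodendrocyte lineage, was lower at an unadjusted p under 0.05 (108, 96.9 and 98.7 against 78.6, 71.9 and 90.0 normalized CPM, adjusted p = 0.311). Hes5, a Notch target and the most abundant partner by FPKM, had 382 and 432 normalized CPM with overlap.

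**Figure D4:**
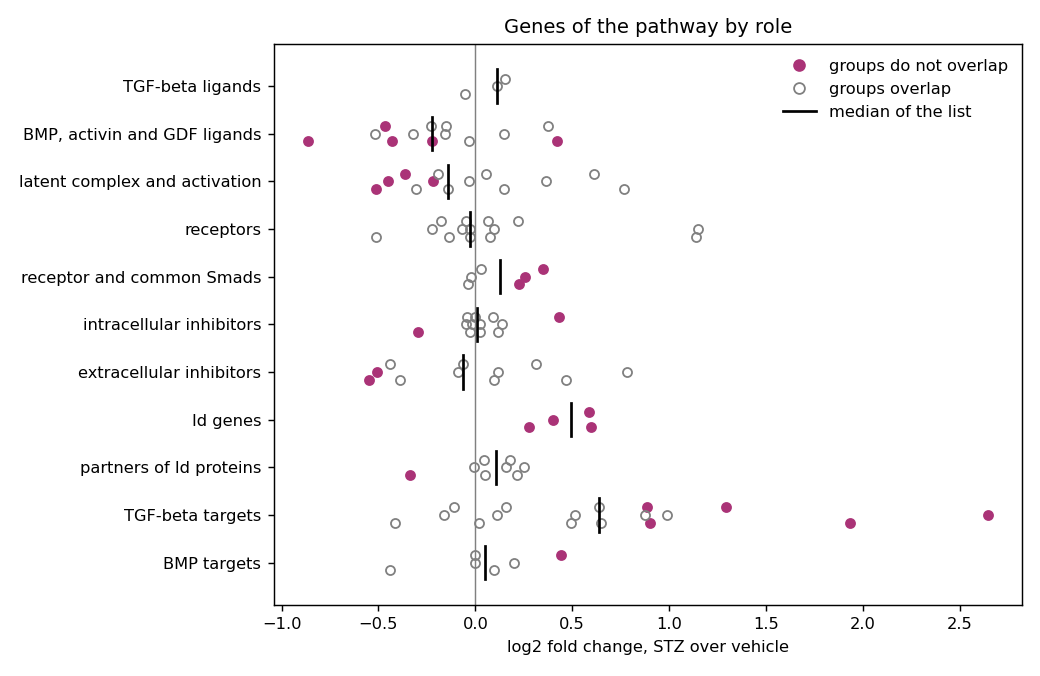
Log2 fold change of STZ over vehicle for each tested gene of the pathway, the 10 genes and Id4 included, arranged by role, with filled points for genes whose groups do not overlap and a bar at the median of each list. All 4 Id genes lie to the right of 0 and are filled, the ligands other than TGF-beta have their median at -0.22, and Tagln lies farthest right at 2.65.

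Markers of blood vessel cells also stood higher with STZ. Of 15 endothelial markers, 13 were higher and 0 lower at an unadjusted edgeR p under 0.05, all 15 were positive, and the median log2 fold change was 1.14. Their summed level was 38.3, 56.3 and 135 FPKM with vehicle and 260, 195 and 140 FPKM with STZ, and no marker was at 0. Of 10 pericyte and smooth muscle markers 5 were higher, with sums of 25.0 to 32.0 FPKM with vehicle and 42.1 to 53.8 with STZ, and no marker was at 0. In this list 9 of the 10 log2 fold changes were positive. The exception was Pdgfrb, the most abundant marker by FPKM, with means of 80.0 and 75.6 normalized CPM and overlap (log2 fold change -0.08). In the following comparison, chosen after the values were seen, vehicle replicate 3 and STZ replicate 3 had nearly equal endothelial sums (135 and 140 FPKM). In this pair Id3 was at 293 and 439 normalized CPM, Id2 at 818 and 977, and Id1 at 60.5 and 71.6. The pair was not equal in pericyte and smooth muscle markers, whose sums were 32.0 and 42.1 FPKM, with Tagln at 1.19 and 5.41 and Acta2 at 22.7 and 45.6 normalized CPM. Among the vehicle samples the endothelial marker Cldn5 was at 14.3, 19.0 and 50.3 normalized CPM, and Id3 stood at 294, 282 and 293. Id1 was at 40.2, 55.0 and 60.5 in these samples, and over all 6 samples its values followed the order of the endothelial sums. The pericyte and smooth muscle sums of the vehicle samples (25.0, 25.8 and 32.0 FPKM) varied less than the endothelial sums. Pdgfrb, the most abundant marker in these sums, lay between 75.6 and 82.3 normalized CPM in the vehicle samples. Other markers of the list varied more and in different directions. Rgs5 rose over vehicle replicates 1 to 3 (5.45, 9.54 and 14.7 normalized CPM), and Notch3 fell (16.02, 11.9 and 11.3). The sums therefore do not show that RNA of these cells was steady among the vehicle samples. The part of vessel-cell RNA in the differences of Id1, Id2 and Id3 was not tested.

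**Figure D5:**
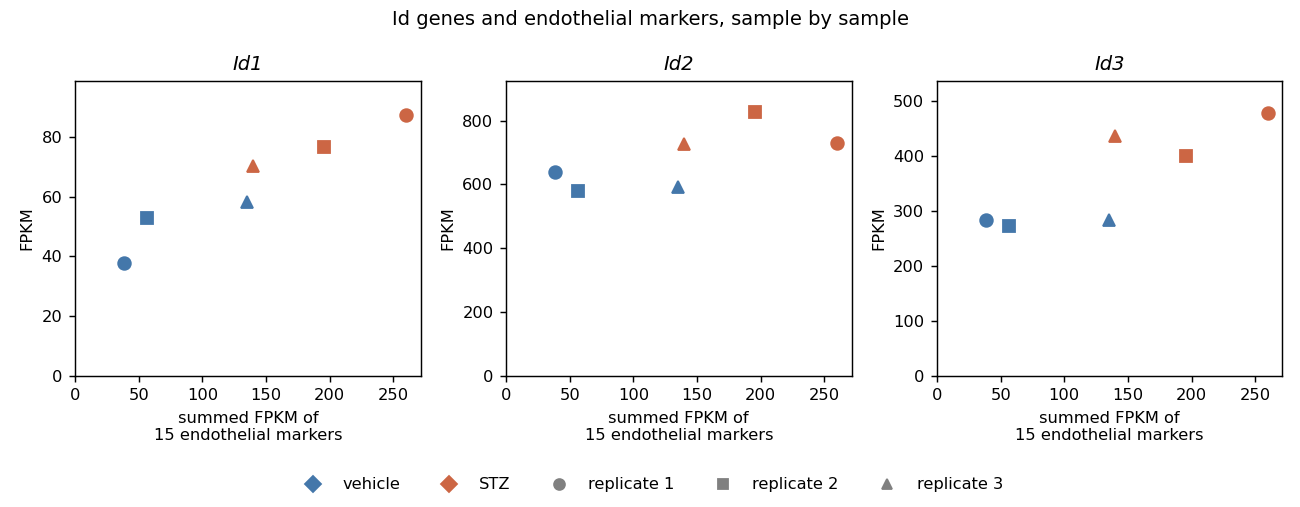
FPKM of Id1, Id2 and Id3 (vertical axes) against the summed FPKM of 15 endothelial markers (horizontal axes) in the 3 vehicle (blue) and 3 STZ (orange) samples, with the marker shape giving the replicate. Vehicle replicate 3 and STZ replicate 3 lie at 135 and 140 FPKM of endothelial markers, where the STZ sample is higher in all 3 panels, and the Id1 points climb with the markers across all 6 samples.

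Immediate-early genes, which can be induced while cells are dissociated and sorted, also stood higher with STZ. Of 11 such genes 5 were higher at an unadjusted edgeR p under 0.05, and their sum was 301, 258 and 353 FPKM with vehicle and 504, 481 and 386 FPKM with STZ. The sum of every STZ sample lay above that of every vehicle sample, and 2 of the 11 genes did so singly. Fos, an abundant gene of the list, had 118 normalized CPM in STZ replicate 3, within the vehicle range of 97.7 to 138, and Dusp1, the most abundant by FPKM, had 288, above the vehicle range of 115 to 194. Their part in the Id differences was not tested. Microglial, fibroblast, oligodendrocyte, neuronal and choroid plexus markers overlapped in their sums between the groups. Among these lists 1 gene had an unadjusted edgeR p under 0.05, Mrc1, a macrophage marker named after its values were seen, with a log2 fold change of -0.82. Of the 7 choroid plexus markers 0 had a positive log2 fold change, and their median was -0.37. Of the 8 astrocyte markers 2 were lower at that p and 0 higher, and their sums overlapped between the groups (5480 to 6349 and 5589 to 6183 FPKM). The lower markers, named after their values were seen, were Aldh1l1 (log2 fold change -0.22) and Aqp4 (-0.48, adjusted p = 0.280 in edgeR and 0.0169 in DESeq2). With Slc1a2 (-0.11), 3 of the 8 were lower without overlap. Of the 8 log2 fold changes 3 were positive, among them that of Aldoc (0.16), the most abundant marker.

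The genes whose profile over the 6 samples was most like that of Id3, by Pearson correlation of log2 CPM over 16252 genes with a mean of at least 1 CPM, were Hddc2 (r = 0.998), Foxo1 (0.995), Elmod3 (0.995), Babam2 (0.990) and Myh11 (0.988). Foxo1 encodes a transcription factor that insulin signalling keeps out of the nucleus, and Myh11 a smooth muscle myosin. In all, 70 genes had a correlation over 0.95. These 6 points fall into the 2 groups compared, so that any genes that differ between them correlate. After the group means were removed, the correlations were 0.989 for Hddc2, 0.907 for Foxo1, 0.946 for Elmod3, 0.860 for Babam2 and 0.874 for Myh11. These genes were picked by their correlation over the same 6 samples, so that the values are no separate check of the likeness.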

How the data were processed

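RNA of sorted astrocytes was sequenced in 3 vehicle and 3 STZ samples. Sample groups and replicate numbers came from the sample labels. Per the submitters' processing notes, the authors trimmed reads with Trimmomatic 0.38, aligned them to mm10 with HISAT2 2.1.0 and quantified genes with StringTie 2.1.3b. The annotation is not given in the sources used here. The labels name a SMART-Seq kit and the study's methods also a TruSeq kit, and neither states strand. The counts deposited by the authors are whole numbers of reads per gene, with no normalization. The deposited FPKM values were divided by transcript length and mapped reads by the authors, and the deposited TPM values were scaled by the authors to a common total per sample.

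The main test was the two-sided quasi-likelihood test of edgeR 4.0.16 (R 4.3.3) after TMM normalization, with group as sole factor. It covered the 22337 genes with a read in each of the 6 samples, a filter taken from the study's methods. Depth was 52529048 to 58749115 reads, at which 3 counts equal 0.0511 to 0.0571 CPM, a floor that covers counting error only. Positions are those of RefSeq on GRCm38, matched by NCBI gene number for 45679 of 45777 genes. Gene lists gave counts and medians only. Named were the 10 genes, at most 4 non-overlapping genes per pathway list by p-value, the most abundant gene of each list by FPKM, and 5 genes most like Id3. Genes and lists were chosen with earlier results of these data known.

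Alternatives were DESeq2 1.42.0, edgeR with DESeq2 size factors, no filter, filterByExpr, the replicate number as a block, limma 3.58.1 on log2(TPM + 1) and log2(TPM + 0.1), and each of 6 samples left out. Tables and figures used Python 3.11.15, pandas 2.3.3 and matplotlib 3.10.9.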

Additional observations from a re-analysis of the deposited data

How the results depend on the processing

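The 3 Id genes kept a positive log2 fold change in all 13 alternatives, with ranges of 0.44 to 0.71 (Id1), 0.22 to 0.32 (Id2) and 0.53 to 0.65 (Id3), and edgeR and limma called 0 of the 10 genes in each. DESeq2 called 234 genes, 1 of the 10 genes and 4 further pathway genes. Without a filter and with filterByExpr, edgeR called 1 further pathway gene, Tagln. The replicate number as a block and limma with either pseudocount called 0 genes, and leaving out a sample 0 to 1, where 5 were called with all samples, while 2 to 3 of the 10 genes and 18 to 30 further pathway genes had an unadjusted p under 0.05. Correlations of same-numbered samples, after the group means were removed, were -0.101, -0.162 and -0.184, with no sign that the numbers pair the pools. Removing the means ties these values to one another, so they cannot show that the pools were unpaired. With the block, the unadjusted p stayed under 0.05 for 2 of the 10 genes and not for Id2 (0.0590). Of the further pathway genes named at that p, it was not met in every alternative by Dlx2 and Tgif1 (8 of 13), Thbs2 (10 of 13), Smad1 (11 of 13) and Itgb5 (12 of 13). Acvrl1 and Bmp7, also named at that p, were not followed singly through the alternatives.

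Signs turned only when a sample was left out, in 6 of the 7 genes outside the Id family. Tgfb1 turned to -0.023 without STZ replicate 1 and -0.0097 without STZ replicate 2, and Tgfb2 to 0.011 without vehicle replicate 2. Tgfbr1 turned to 0.028 without vehicle replicate 1 and 0.010 without STZ replicate 1, and Bmpr1a to 0.0015 without vehicle replicate 1. Smad6 turned to -0.092 without vehicle replicate 1 and -0.022 without STZ replicate 1. Smad7 turned to 0.0087 without STZ replicate 2 and 0.085 without STZ replicate 3. The cause was not tested. Over the samples left out, the log2 fold changes ranged from -0.023 to 0.44 for Tgfb1, -0.17 to 0.011 for Tgfb2, -0.16 to 0.028 for Tgfbr1, 0.12 to 0.42 for Tgfbr2, -0.067 to 0.0015 for Bmpr1a, -0.092 to 0.35 for Smad6 and -0.26 to 0.085 for Smad7. The median of all genes stayed within 0.03 of 0 in every alternative. With 103 reads or more per sample, the spread between 3 pools rather than counting limits the comparison of the lower genes.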
